A study of Mus musculus with 3 samples.

Results

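Bone marrow cells that carry the surface glycoprotein CD133 (encoded by Prom1) were sorted by fluorescence-activated cell sorting from C57BL/6 mice and sequenced as 3 droplet libraries of single cells, and 10 innate sensing genes were followed in them out of 27998 genes in the files. The set holds the formyl peptide receptors Fpr1 and Fpr2, the Toll-like receptor genes Cd14, Tlr2, Tlr4 and Myd88, the immunoglobulin Fc receptor chains Fcgr3 and Fcer1g, and the interleukin-1 genes Il1b and Il1r2. It was taken as a named list, chosen with earlier results of these data known, and all 10 genes are in the files. The young and control libraries carry an age of 3 months in the sample labels and the old library an age of 27 months, whereas the text on the design of the series gives 18.5 months for the old mice. No treatment, allele or other difference between the young and control mice is given. Each library pooled marrow of 3 mice, so age, library and preparation cannot be told apart, and no test between libraries was possible.

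Formyl peptide receptors are receptors coupled to G proteins that guide neutrophils towards the formylated peptides that bacteria and damaged mitochondria release. Fpr2 also binds annexin A1, the product of Anxa1, a protein that damps neutrophil recruitment. Cd14 hands bacterial lipopolysaccharide to Tlr4, Tlr2 detects bacterial lipoproteins, and Myd88 is the adaptor that carries their signal towards NF-kB. Fcgr3 is a low-affinity activating receptor for immunoglobulin G that signals through Fcer1g, the common gamma chain with an activation motif in its tail. Il1b is the inflammatory cytokine interleukin-1 beta, and Il1r2 is a decoy receptor that binds it without signalling. In the marrow such receptors are best known from the late steps of neutrophil maturation, after the myeloperoxidase-rich promyelocyte.

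The formyl peptide receptor genes lie beside each other on mouse chromosome 17 (GRCm38, GENCODE M21): Fpr1 (ENSMUSG00000045551) at chr17:17876471-17883940 on the minus strand and Fpr2 (ENSMUSG00000052270) at chr17:17887824-17893952 on the plus strand, with 3884 bp between their start sites. They are transcribed away from each other, so the stretches before their starts face one another. These are shown because Fpr1 and Fpr2 reached high levels in the same late cells but at different steps. The stretch of Fcgr3 beside its RefSeq start is shown because it alone, of the members with a promoter entry, held any of the motifs searched. The sequences are the RefSeq entries on GRCm38.p6, each read 5′ to 3′ on the strand of its gene, in lower case. The 250 bases before the start are given for Fpr1 (chr17:17883940-17884189, minus) and Fpr2 (chr17:17887574-17887823, plus), and for Fcgr3 the last 60 bases before the start (chr1:171059404-171059463, minus), with the motif matches in capitals.
Fpr1: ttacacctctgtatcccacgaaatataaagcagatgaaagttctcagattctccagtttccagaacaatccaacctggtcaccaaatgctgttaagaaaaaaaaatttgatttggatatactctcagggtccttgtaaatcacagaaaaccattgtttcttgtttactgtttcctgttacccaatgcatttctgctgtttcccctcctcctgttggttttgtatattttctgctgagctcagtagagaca
Fpr2: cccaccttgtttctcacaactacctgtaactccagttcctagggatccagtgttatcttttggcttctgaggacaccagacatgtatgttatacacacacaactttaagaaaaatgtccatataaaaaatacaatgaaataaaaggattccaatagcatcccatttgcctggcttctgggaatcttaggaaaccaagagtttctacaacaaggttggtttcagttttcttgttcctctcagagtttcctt
Fcgr3: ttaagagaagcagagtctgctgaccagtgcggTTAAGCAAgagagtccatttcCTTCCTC

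Motifs were searched on both strands in the 250 bases before each start, and 8 of the 10 members matched an entry. The C/EBP core TTGCNNAA was in the Fcgr3 stretch and in 9.56% of all 32851 promoters. The PU.1 core GAGGAAG was in the Fcgr3 stretch and in 10.6% of all promoters. The NF-kB pattern searched, GGGA and TTCC parted by 2 free bases, was in none of the 8 members and in 1.21% of all promoters. Other forms of the NF-kB site were not searched. The matches are a description of letters in these windows and say nothing of binding.

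The other members lie at chr3:83836272-83841767 (Tlr2, ENSMUSG00000027995, minus), chr4:66827584-66930284 (Tlr4, ENSMUSG00000039005, plus), chr9:119335934-119341411 (Myd88, ENSMUSG00000032508, minus), chr1:171051174-171064935 (Fcgr3, ENSMUSG00000059498, minus), chr1:171229572-171234365 (Fcer1g, ENSMUSG00000058715, minus), chr2:129364570-129371139 (Il1b, ENSMUSG00000027398, minus) and chr1:40074079-40125231 (Il1r2, ENSMUSG00000026073, plus). Cd14 is ENSMUSG00000051439. Fpr2 overlaps Fpr3 on the same strand, Myd88 overlaps Slc22a14 on the same and Acaa1a on the opposite strand, and Il1r2 overlaps Gm37347 and Gm16894. Counts of Fpr2, Myd88 and Il1r2 are uncertain to the extent that reads in the overlaps were assigned to, or dropped for, a neighbour. Il1b overlaps the antisense Il1bos, and the strand setting of the counting is not given in the sources used here. Fpr1 and Fpr2 are also related in sequence, so reads of a shared stretch could have been assigned to neither.

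The files held 8362 young, 10597 old and 10869 control cells, with 81434722, 138030352 and 108985799 unique molecular identifiers (UMIs, counted cDNA molecules) in all. Between 120 and 161 barcode sequences were shared by each pair of libraries. After filtering, cells with markers of another blood cell type were set aside, which removed 10.7% of young, 0.992% of old and 1.12% of control cells. The remaining 6585 young, 9585 old and 9670 control cells are called the neutrophil lineage here, because the 6 neutrophil precursor markers summed to between 107834 and 124059 CPM (counts scaled to 1000000 UMIs in the cells summed) over all kept cells. The study names the sorted cells endothelial-like. The 7 endothelial markers summed to between 7.76 and 11.3 CPM, with Cdh5, Tek and Cldn5 at 0 in the old and Tek at 0 in the control library, so the cells are called by their neutrophil markers. Prom1 itself was at 43.8 CPM in young, 45.7 in old and 52.6 in control cells.

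The neutrophil lineage was cut into 5 bands by Mpo (myeloperoxidase, high in promyelocytes) and by the sum of Retnlg and Mmp8 (made by maturing neutrophils), in UMIs per 10000 UMIs of a cell. Band 1 held cells with Mpo of 50 or more and band 2 those from 10 to under 50. Bands 3, 4 and 5 held cells with Mpo under 10 and with Retnlg plus Mmp8 under 5, from 5 to under 20, and 20 or more. A band is a range of a score and not a cell type, and 33.6% of young, 33.3% of old and 19.9% of control cells were within 20% of a limit. Cells with Mpo of 10 or more and Retnlg plus Mmp8 of 5 or more (470 young, 625 old and 124 control) are called mixed. They were kept out of the bands but stayed in the lineage, and so in each level and ratio over it. No doublet caller was run.

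The libraries filled the bands unequally. Band 1 took 14.4% of the young, 6.98% of the old and 12.6% of the control lineage. Band 5 took 6.14% of the young, 17.0% of the old and 3.44% of the control lineage. The old library thus had the largest share of late cells among the kept cells. A level over the whole lineage depends on this share as well as on the level in each band. Filtering had removed 693 young, 134 old and 512 control cells of the lineage with few UMIs. Their Retnlg plus Mmp8 stood at 20733, 23082 and 10102 CPM, against 11548, 11585 and 12909 CPM in band 5. How far this removal moved the shares was not tested. Mean UMIs per cell fell from 12411 in band 1 to 6440 in band 5 of the young, from 14753 to 8274 of the old and from 12270 to 5674 of the control library. A higher CPM in a late band is therefore a larger part of a smaller total.

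Free RNA in the droplets gives UMIs of a gene in cells that do not make it. The 109 young cells with B progenitor markers served as the measure of this background, since the old and control libraries held only 3 and 11 such cells. They held Retnlg plus Mmp8 at 716 CPM, against 277 CPM in band 1 of the young library. Whether free RNA alone gave their levels was not tested, so the measure may lie above the true background. It comes from the young library alone. The background of the old and control libraries was not measured and may be higher or lower for each member, which limits every comparison of their levels or shares with it. In them Fpr1 stood at 10.8 CPM (95% Poisson interval 5.41 to 19.4), Fpr2 at 30.5 (20.7 to 43.3), Il1b at 8.86 (4.05 to 16.8) and Fcer1g at 575 (529 to 624). All intervals given for levels and shares cover counting error only, not the spread between mice.

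Fpr1 was a gene of the last band. From band 1 to band 5 it stood at 2.13, 3.11, 3.51, 7.73 and 134 CPM in young cells. In old cells the same bands gave 4.26, 4.63, 8.60, 18.5 and 204 CPM. In control cells they gave 0.536, 2.09, 3.47, 12.3 and 117 CPM. Bands 1 to 3 lay below the B progenitor level in all libraries, as did band 4 of the young library, and cannot be told from free RNA by this measure. Band 4 of the old and control libraries overlapped the B progenitor interval. Band 5 stood far above it in each library, with no overlap of the counting intervals between band 5 and any earlier band.

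Fpr2 made its largest step earlier, into band 3. Young cells gave 5.54, 9.18, 41.9, 66.4 and 205 CPM from band 1 to band 5. Old cells gave 9.02, 17.1, 63.3, 111 and 277 CPM. Control cells gave 7.77, 21.6, 75.1, 156 and 299.5 CPM. Each band was above the band before it in every library, with the interval of each ratio clear of no change. Bands 1 and 2 were below the B progenitor level in all 3 libraries and cannot be told from free RNA by this measure, although young NK and T-like cells gave less (5.33 CPM, 1.10 to 15.6). Band 3 of the old and control libraries was above the young B progenitor interval, and that of the young library (39.5 to 44.5) overlapped it. The old and control lineages held more Fpr2 (93.2 and 66.4 CPM) than the young (42.8 CPM). Whether band 3 would clear a background of their own was not tested.

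**Figure D1:**
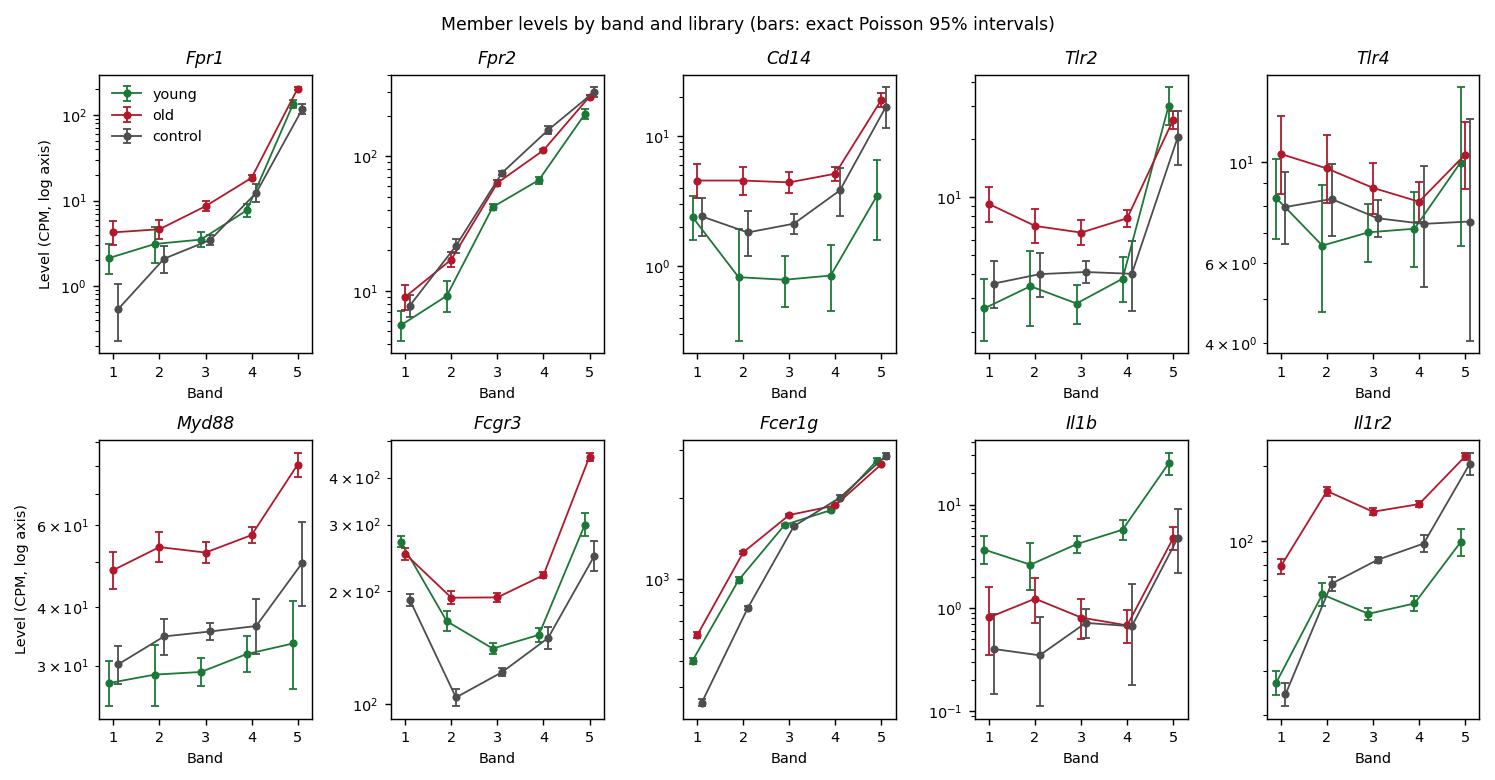
Level of each of the 10 members in CPM (log axis) across the 5 bands, from high Mpo (band 1) to high Retnlg plus Mmp8 (band 5), in the young, old and control libraries, with 1 library each and bars showing 95% Poisson intervals of the counts. Fpr1 stays at or under 18.5 CPM up to band 4 and reaches 117 to 204 CPM in band 5, while Tlr4 stays between 6.56 and 10.4 CPM throughout.

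Among the Toll-like receptor genes, Cd14 and Tlr2 were scarce up to band 4. Cd14 ended at 3.46 CPM (1.58 to 6.57) in young, 19.1 (16.8 to 21.6) in old and 16.9 (11.6 to 23.9) in control cells of band 5. In bands 1 to 4 it ranged from 0.783 to 2.38 CPM in young, from 4.41 to 5.15 in old and from 1.81 to 3.83 in control cells. Band 5 of the young library overlapped its own band 1 for Cd14, and band 5 of the others did not.

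Tlr2 ended at 30.0 CPM (23.7 to 37.4) in young, 25.3 (22.7 to 28.2) in old and 20.6 (14.7 to 28.2) in control cells of band 5. In bands 1 to 4 it ranged from 2.64 to 3.77 CPM in young, from 6.55 to 9.22 in old and from 3.55 to 4.08 in control cells. The young and control values of bands 1 to 4, and the old values of bands 2 to 4 (7.09, 6.55 and 7.78 CPM), lay within the interval of the B progenitor-like cells (2.95 CPM, 0.609 to 8.63) and cannot be told from free RNA by this measure. The last band was apart from every earlier band in all 3 libraries, and in band 5 the intervals of the 3 libraries overlapped.

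Tlr4, the lipopolysaccharide receptor, was flat on the CPM scale. It ranged from 6.56 to 9.99 CPM over the bands of the young library. It ranged from 8.19 to 10.4 CPM in the old and from 7.32 to 8.31 CPM in the control library. Within each library the intervals of band 1 and band 5 overlapped, although band 5 of the control library rested on a wide interval (7.41 CPM, 4.05 to 12.4).

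Myd88, the adaptor downstream of these receptors, was detected in every band. It stood at 27.5, 28.7, 29.1, 31.8 and 33.4 CPM from band 1 to band 5 in young cells. In old cells it stood at 48.0, 53.8, 52.3, 57.0 and 80.7 CPM. In control cells it stood at 30.2, 34.6, 35.5, 36.4 and 49.7 CPM. The old values were the highest in each of the 5 bands, with intervals above those of both other libraries, while the young values of all bands and the control values of bands 1 to 4 overlapped those of the B progenitor-like cells (23.6 CPM, 15.1 to 35.2).

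The Fc receptor chains followed different courses. Fcgr3 was lowest in the middle bands: from band 1 to band 5 it stood at 270.4, 166, 140.4, 153 and 300.2 CPM in young cells. Old cells gave 251, 192, 192, 220.1 and 455 CPM. Control cells gave 189, 104, 122, 149.8 and 247 CPM. Every library thus held a dip in band 2 or 3 between higher ends, and band 1 was far above the 62.0 CPM (47.7 to 79.4) of the young B progenitor-like cells.

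Fcer1g, its signalling chain, was instead higher at each step on the CPM scale. Young cells gave 500.0, 992, 1588, 1800.0 and 2744 CPM from band 1 to band 5. Old cells gave 619.9, 1257, 1728, 1874 and 2662 CPM. Control cells gave 349.6, 783, 1570.2, 2004 and 2864 CPM. No interval of a band overlapped that of the band before. Band 1 of the young and control libraries lay below the B progenitor level of 575 CPM and above that of the young erythroid-like cells (197 CPM, 148 to 255).

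Il1b was scarce outside the young library. It stood at 3.66, 2.62, 4.14, 5.71 and 24.98 CPM from band 1 to band 5 in young cells. Old cells gave 0.811, 1.23, 0.809, 0.679 and 4.76 CPM. Control cells gave 0.402, 0.349, 0.718, 0.666 and 4.76 CPM. Only band 5 of the young library was above the 8.86 CPM of the B progenitor-like cells, a level measured in the young library alone. Within the old library the intervals of band 4 (0.461 to 0.964) and band 5 (3.66 to 6.07) were apart.

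Il1r2, the decoy receptor, stepped up at band 2 and again at band 5. Young cells gave 27.0, 61.0, 51.0, 56.1 and 98.8 CPM from band 1 to band 5. Old cells gave 79.2, 159, 131, 141 and 219 CPM. Control cells gave 24.2, 67.4, 84.0, 97.7 and 204 CPM. The old library was the highest in bands 1 to 4 with intervals apart, and in band 5 old and control overlapped while young lay below both.

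Band 5 was then compared with band 1 across libraries. UMIs were summed for each library and band (15 sums) and fitted by edgeR's quasi-likelihood test with library as a block, over 10617 genes. A gene was called at a Benjamini-Hochberg adjusted p under 0.05 and a fold of at least 2. The spread is what remains between the 15 sums after band and library are fitted, with 8 residual degrees of freedom. The test moderates the spread of each gene with that of all genes tested. Its p-values thus rest on more than these 8 degrees of freedom. Each SE given was derived from the test, as the size of the log2 fold change over the square root of the F statistic. The 3 libraries carry different group labels, and the bands of a library are separate cells of the same pooled mice. Fold changes here are after TMM scaling, which sets the bulk of genes near 0. Of the 10 members 9 were called higher and 0 lower, where 21.8% of all genes tested were called higher and 24.3% lower. The median log2 fold change was 3.04 over the members and -0.09 over all genes.

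Fpr1 rose most, by a log2 fold change of 7.01 ± 0.21 (SE, n = 3 libraries, adjusted p = 1.12e-15 by edgeR). Fpr2 followed at 6.03 ± 0.15 (adjusted p = 1.02e-16 by edgeR). The formyl peptide receptors were thus the leading members by fold. Il1b was higher by 3.71 ± 0.29, with its old and control levels below the B progenitor level of the young library. On the same scale Fcer1g was higher by 3.37 ± 0.15 and Tlr2 by 3.14 ± 0.23. Il1r2 was higher by 2.94 ± 0.19, Cd14 by 2.84 ± 0.26, Myd88 by 1.53 ± 0.10 and Fcgr3 by 1.34 ± 0.13. Tlr4 alone was not called, with 0.98 ± 0.15, a 1.97-fold difference (adjusted p = 5.48e-06 by edgeR) just under the limit of fold.

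The scale bears on the smaller of these values. Without a scaling factor, that is on CPM, the median of all genes was -0.99 rather than -0.09, and all calls moved from 2316 higher and 2582 lower to 1052 higher and 5202 lower. On that scale 7 members were called higher. Fpr1 kept 6.15 ± 0.23 and Fpr2 5.17 ± 0.14. Myd88 came to 0.64 ± 0.10, Fcgr3 to 0.47 ± 0.12 and Tlr4 to 0.07 ± 0.14 (adjusted p = 0.645 by edgeR), none of them called. Per 100 cells, Tlr4 UMIs went from 10.4 in band 1 to 6.44 in band 5 in young, from 15.4 to 8.61 in old and from 9.79 to 4.20 in control cells. Counted per cell, Myd88 was also lower in band 5 of all 3 libraries, Fcgr3 in the young and control and Cd14 in the young. The directions of Tlr4, Myd88, Fcgr3 and Cd14 therefore turn with the scale in some libraries, and those of Fpr1, Fpr2, Tlr2, Fcer1g, Il1b and Il1r2 did not.

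**Figure D2:**
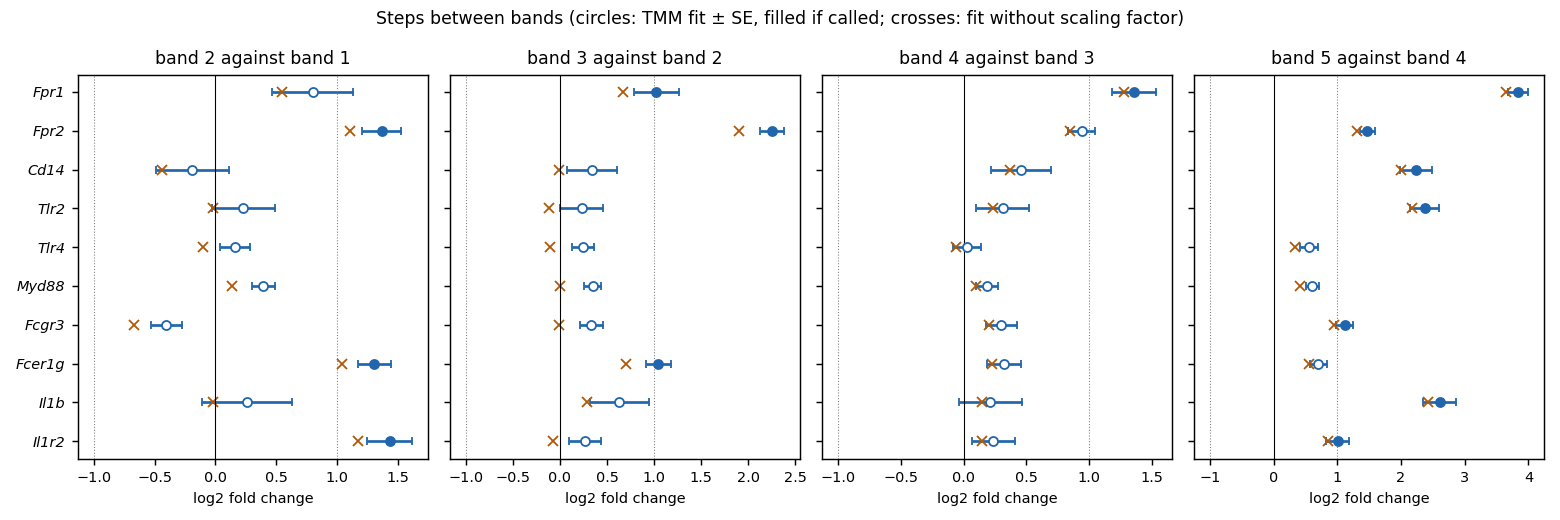
Log2 fold change of each member for the 4 steps between neighbouring bands, from the edgeR fit over 15 sums with TMM scaling (circles, bars ± SE, filled where called) and without a scaling factor (crosses). Fpr2 takes its largest step from band 2 to band 3 (2.25), and Fpr1 its largest from band 4 to band 5 (3.84).

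Step by step, the members moved at different points. From band 1 to band 2, 3 members were called higher and 0 lower, against 3.48% and 4.87% of all genes: Il1r2 (log2 fold change 1.43 ± 0.18), Fpr2 (1.36 ± 0.16) and Fcer1g (1.31 ± 0.14). From band 2 to band 3, 3 were called higher and 0 lower, against 3.75% and 5.44% of all genes: Fpr2 (2.25 ± 0.13), Fcer1g (1.05 ± 0.13) and Fpr1 (1.02 ± 0.24). Only Fpr2 was called at this step without a scaling factor. The call of Fpr2 at the earlier and of Fpr1 at the later of these steps rest on levels below the upper end of the B progenitor interval.

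From band 3 to band 4 Fpr1 was the only member called (1.36 ± 0.18, adjusted p = 4.04e-04 by edgeR), against 0.226% of all genes. Its levels in both bands lay below the upper end of the B progenitor interval in every library. Fpr2 was at 0.94 ± 0.11 in that step, 1.92-fold and under the limit of fold. Without library as a block no member was called there, and without the young library both Fpr1 and Fpr2 were.

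From band 4 to band 5, 7 members were called higher and 0 lower, against 6.58% and 5.71% of all genes. Fpr1 led with 3.84, followed by Il1b (2.61 ± 0.26), Tlr2 (2.37) and Cd14 (2.23). Fpr2 (1.47), Fcgr3 (1.11 ± 0.13) and Il1r2 (1.01 ± 0.18) made smaller steps. Fcer1g was at 0.70 ± 0.13 and not called. Without a scaling factor 5 members were called at this step, and Fcgr3 (0.94) and Il1r2 (0.85) were not.

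No member was called lower at any step. Without a scaling factor the share of all calls that were higher went from 41.7 to 15.8%, from 40.8 to 14.0% and from 53.6 to 32.9% at the steps into bands 2, 3 and 5, and stayed at 100% at the step into band 4. Fcgr3 was at -0.40 ± 0.12 from band 1 to band 2 (adjusted p = 0.0140 by edgeR), a 1.32-fold lower level and under the limit of fold. On the CPM scale this fall was seen in 3 of 3 libraries.

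Other genes of the same pathways were read from a list of 80 genes, of which 57 passed the filter on low counts. From band 1 to band 5, 35 of the 57 were called higher, 0 lower and 22 were not called, with a median log2 fold change of 1.65. Cxcl2, a chemokine that draws neutrophils, led with 6.39 ± 0.45, although it rested on 1 or 2 UMIs in band 1 of each library and 7 to 97 in band 5. Tlr13, a sensor of bacterial ribosomal RNA, was higher by 5.60 ± 0.32, and Il1rn, the interleukin-1 receptor antagonist, by 4.94 ± 0.20. Pirb, an inhibitory receptor, was higher by 4.48 ± 0.18, and Ly96, the partner that lets Tlr4 bind lipopolysaccharide, by 4.41 ± 0.26. Ly96 stood at 17.7, 12.8 and 7.41 CPM in band 5 of the young, old and control libraries, so Tlr4's partner changed across the bands where Tlr4 itself did not pass the call.

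Anxa1, the ligand of Fpr2, was already abundant in band 1. It stood at 1149.8 CPM in band 1 and 3738 in band 3 of the young library, and at 3089.7 and 5999.9 CPM in those bands of the old library. The control library gave 1202 and 3977 CPM, and the young B progenitor-like cells 925 CPM (867 to 986). From band 1 to band 5 it was called higher, by 2.53 ± 0.15. At the 4 steps the pathway list gave 12 calls higher and 1 lower (band 2), 8 and 0 (band 3), 0 and 0 (band 4), and 14 and 0 (band 5).

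The libraries were compared with each other next, as ratios of CPM with exact 95% binomial intervals. With 1 library for each condition these ratios have no replicate check, and a gene was counted where it had at least 10 CPM in either library and a ratio of at least 1.5. Other markers differed too: the 8 monocyte markers still summed to 44.2 CPM in the young, 18.5 in the old and 14.0 in the control lineage, and the B progenitor markers to 28.6, 4.97 and 9.71 CPM. None of the 8 monocyte markers was at 0 in any lineage, and in band 5 the control library had Csf1r, Ccr2 and Ly86 at 0. Their part in the ratios below was not tested.

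Old cells were above young cells in 4 of the 6 members with enough counts, and below in 0, where 5.04% of all such genes were higher and 10.2% lower (9.04% and 5.24% after TMM scaling, with 6 members higher). Over the lineage Fpr1 was at 33.9 CPM in old and 9.76 in young cells, a log2 ratio of 1.80 (1.68 to 1.92). Il1r2 was at 145 and 50.6 CPM (1.52, 1.47 to 1.57), Fpr2 at 93.2 and 42.8 CPM (1.12, 1.06 to 1.18) and Myd88 at 57.3 and 29.2 CPM (0.97, 0.90 to 1.04). Fcgr3, at 239 and 179.8 CPM, and Fcer1g, at 1707 and 1388 CPM, were within the limit. Cd14, Tlr2, Tlr4 and Il1b were under 10 CPM in both.

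Part of these ratios went with the shares of the bands. For Fpr1 the old to young log2 ratio was 0.61 (0.45 to 0.77) within band 5, and 0.67 when the 5 bands were given equal weight, against 1.80 over the lineage. It was 1.06 over the lineage with no trimming of cells by UMIs. For Myd88 it was between 0.80 and 1.27 within each band, and for Il1r2 between 1.15 and 1.55. The old library was thus above the young for Myd88 and Il1r2 by more than the limit in 5 of 5 bands. Fpr2 passed the limit in bands 2, 3 and 4, with 0.59 to 0.90 (both levels of band 2 lay below that of the B progenitor-like cells), and not in band 5 (0.43, 0.30 to 0.57). Over all bands, 17 of 31 pairs of member and band with enough counts were higher in old, and 1 was lower. From band 1 to band 5 the shares of all genes were 4.37, 6.78, 6.54, 7.15 and 8.21% higher and 9.40, 8.54, 6.75, 9.18 and 21.7% lower.

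The pair that was lower was Il1b in band 5, at 4.76 CPM in old and 24.98 in young cells (log2 ratio -2.39, -2.91 to -1.87), where 21.7% of all genes were lower. Control cells of band 5 gave 4.76 CPM as well.

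**Figure D3:**
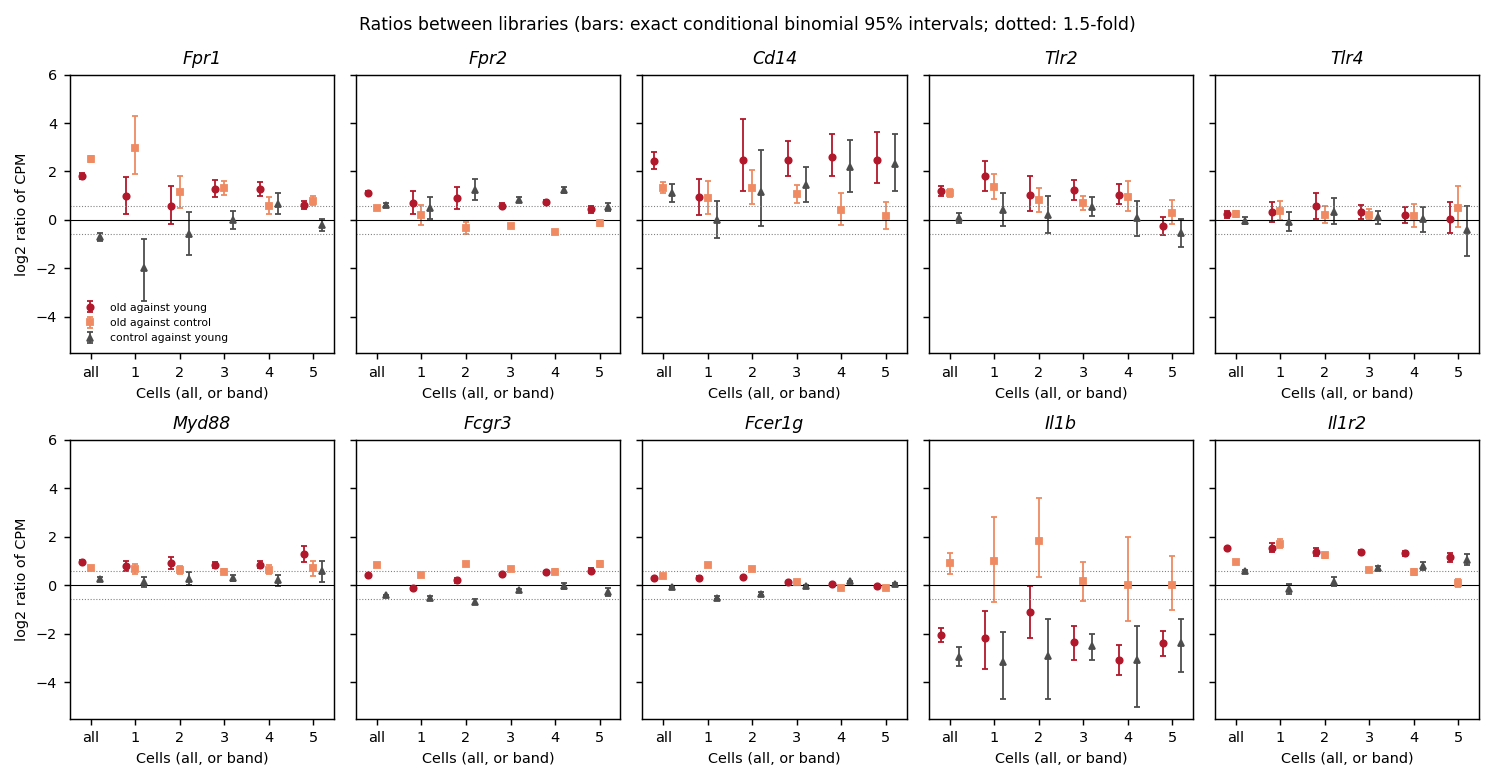
Log2 ratio of CPM between libraries for each member over the whole neutrophil lineage and within each band (old to young, old to control, control to young), with exact 95% binomial intervals and dotted lines at the 1.5-fold limit. For Fpr1 the old to young ratio is 1.80 over the lineage and 0.61 within band 5, and for Myd88 it stays between 0.80 and 1.27 in the bands.

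Against the control library, which has the same age label as the young, old cells were higher in 4 of 6 members and lower in 0, where 5.35% of all genes were higher and 8.66% lower (8.27% and 5.07% after TMM scaling, with 6 members higher). Fpr1 was at 5.92 CPM in the control lineage, a log2 ratio of 2.52 (2.39 to 2.65), which came to 0.80 (0.60 to 1.01) within band 5. Il1r2 was at 75.4 CPM in control (0.94, 0.90 to 0.98), Fcgr3 at 135 CPM (0.83, 0.80 to 0.86) and Myd88 at 34.9 CPM (0.72, 0.66 to 0.78). Fpr2 was within the limit over the lineage (0.49, 0.44 to 0.53), and within bands 2, 3 and 4 the old library was below the control, by log2 ratios of -0.34, -0.25 and -0.50. This order turns with the scale: per 100 cells, bands 3, 4 and 5 held 84.6, 136 and 229 Fpr2 UMIs in old against 72.7, 111 and 170.0 in control cells.

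The control and young libraries differed from each other as well, in 1 of 5 members, where 2.48% of all genes were higher and 3.71% lower (3.58% and 2.76% after TMM scaling, with 2 members higher). That member was Fpr2 (66.4 and 42.8 CPM, log2 ratio 0.63, 0.57 to 0.70). With the mixed cells left out, 0 members passed the limit. Within bands 3, 4 and 5, Il1r2 was higher in control than in young by 0.72, 0.80 and 1.05, past the limit in each. Il1b stood at 0.684 CPM in the control and 5.27 in the young lineage, a log2 ratio of -2.95 (-3.35 to -2.56), with both under 10 CPM. Over all bands, 8 of 29 pairs of member and band were higher in control and 2 lower, where from band 1 to band 5 the shares of all genes were 5.60, 7.01, 2.28, 2.93 and 6.58% higher and 7.19, 5.25, 3.26, 8.22 and 11.0% lower.

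Old cells were at least 1.5 times above both other libraries in Fpr1, Myd88 and Il1r2, as were 3.36% of all genes with enough counts. By intervals, the old library was above both others in 5 of 5 bands for Myd88, in 4 for Tlr2, Fcgr3 and Il1r2, in 3 for Fpr1 and Fcer1g, in 2 for Cd14 and in 0 for Fpr2, Tlr4 and Il1b. The Tlr2 bands (1 to 4) and bands 3 and 4 of Fpr1 overlapped the B progenitor interval. On the CPM scale the Myd88 intervals, which cover counting error only, were thus apart in every band. No share of all genes passing this interval rule was computed, so these counts have no background to be read against.

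Of the 79 listed pathway genes in the files, 33 had enough counts for old against young, and 7 were higher and 2 lower. Clec4e, a lectin that senses mycobacterial glycolipid and dead cells, was 3.49-fold and Pirb 3.18-fold higher. Fcgr4, an activating Fc receptor that shares the Fcer1g chain, was 2.24-fold and Anxa1 1.88-fold higher. Tab2 and Irak1, which act below Myd88, were lower by log2 ratios of -0.71 and -0.59. Against control, Clec4e, Fcgr4, Anxa1 and C5ar1 were higher and Irak1 lower, and between control and young only Pirb passed the limit, 2.26-fold higher in control. The median log2 ratio of old to young over the list was 0.06, against 1.05 over the members with enough counts and -0.08 over all genes.

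The last band was itself a wide range, and its cells were split by Retnlg plus Mmp8 at 50, 100 and 200 per 10000 UMIs, limits chosen after seeing the data. Fpr1 went from 63.2 CPM in the lowest part to 279 in the highest in young, from 96.3 to 411 in old and from 68.0 to 240.2 in control cells. Il1r2 went from 69.5 to 181, from 164 to 382 and from 113 to 401 CPM. Fcgr3 went from 247 to 509.7, from 350.3 to 667 and from 185 to 377 CPM. These genes were thus still climbing where Fpr2 was nearly level, at 249 and 294 CPM in old and 292 and 328 CPM in control cells.

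Cd14 also climbed within band 5, from 11.7 to 37.4 CPM in old and from 5.79 to 45.6 in control cells, and Tlr2 from 14.4 to 53.3 and from 14.5 to 51.7 CPM. Il1b stood at 23.2, 26.2, 27.6 and 23.8 CPM in the 4 parts of the young library. In the old library it stood at 0.676, 0.714, 3.95 and 19.9 CPM. In the highest part the young (11.4 to 43.8) and old (14.8 to 26.4) intervals overlapped, so the gap in Il1b lay in the cells with less Retnlg and Mmp8. Anxa1 went the other way from Fpr1 in old cells, at 7747, 7921, 7115 and 4988 CPM.

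**Figure D4:**
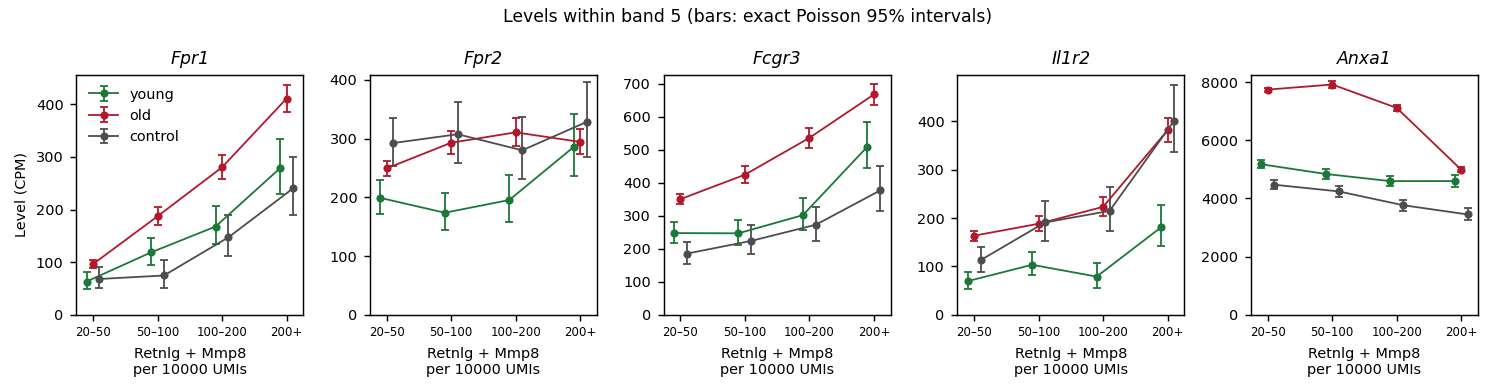
Levels in CPM of Fpr1, Fpr2, Fcgr3, Il1r2 and Anxa1 within band 5, split by Retnlg plus Mmp8 per 10000 UMIs (20 to 50, 50 to 100, 100 to 200, 200 or more), for the 3 libraries with 95% Poisson intervals. Fpr1 goes from 96.3 to 411 CPM in the old library and Anxa1 from 7747 to 4988 CPM.

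Shares of cells tell whether a level comes from many cells. Each cell was thinned to 3000 UMIs, which left out no cell of band 1 or band 5. In band 5, Fpr1 was seen in 32.4% of 404 young (95% exact binomial interval 27.9 to 37.2), 42.8% of 1626 old (40.4 to 45.3) and 32.4% of 333 control cells (27.4 to 37.8). In band 1 it was seen in 0.740, 1.05 and 0.164% of cells, below the 3.67% of the B progenitor-like cells. The unthinned shares in band 5 were 47.3, 68.9 and 41.1%.

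Fpr2 was seen in 51.5% of young, 56.8% of old and 63.1% of control cells of band 5, against 7.34% of the B progenitor-like cells. Fcgr3 was in 59.2, 71.9 and 53.2%, against 14.7%. Myd88 was in 10.9, 23.8 and 15.02%, against 6.42%, and in young cells its interval (8.03 to 14.3) overlapped that of the background (2.62 to 12.8). Il1r2 was in 24.0, 46.1 and 40.5%, against 4.59%. The old library was the highest for Fpr1, Fcgr3, Myd88 and Il1r2, the control for Fpr2. Fcer1g was in at least 99.8% of cells of band 5, but also in 73.4% of the B progenitor-like cells, so its share says little.

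The scarce members reached few cells. Cd14 was seen in 0.743% of young (0.153 to 2.15), 5.97% of old (4.86 to 7.23) and 4.50% of control cells (2.54 to 7.32) of band 5. It was seen in 0 of 109 B progenitor-like cells, which allows a share of up to about 2.75%. This bound is 3 cells over 109, an approximation, and not the exact binomial interval used for the other shares. Tlr2 was in 9.41, 8.49 and 7.21% of band 5, with the same 0 of 109 in the background. Tlr4 was in 2.23, 3.51 and 2.102%. Il1b was in 4.46% of young (2.66 to 6.95), 1.54% of old and 1.502% of control cells. All lay within the wide interval of the background (3.67%, 1.01 to 9.13), so its share cannot be told from background. Its level in band 5 of the young library (24.98 CPM, 19.3 to 31.8) was above that of the B progenitor-like cells.

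**Figure D5:**
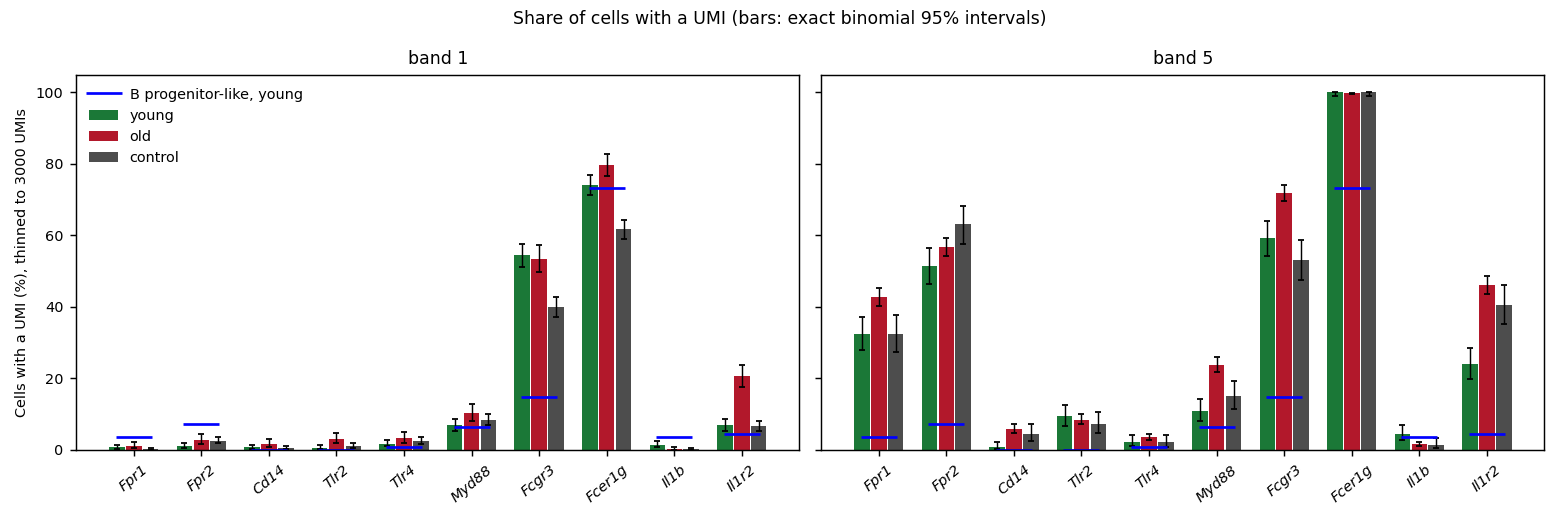
Share of cells with a UMI of each member after thinning to 3000 UMIs, in band 1 and band 5 of the 3 libraries, with exact 95% binomial intervals. Blue dashes give the share in the 109 young B progenitor-like cells. Fpr1 lies at 32.4 to 42.8% in band 5 and at most 1.05% in band 1, and Il1b does not rise above the dash beyond its interval.

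The share in band 5 was above that in band 1 in every library with intervals apart for 5 members, Fpr1, Fpr2, Tlr2, Fcer1g and Il1r2. The same count was not made over all genes. A thinned cell of band 5 held on average 2.95 of the 10 members in young, 3.61 in old and 3.20 in control cells. At least 4 members were seen in 30.0% of young, 52.3% of old and 37.5% of control cells of band 5, and in 0.317, 3.59 and 0.247% of band 1.

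Within band 5, cells with and without Fpr1 held Fpr2 alike. Fpr2 was seen in 52.7% of young cells with Fpr1 and 50.9% without. The shares were 57.9 and 56.0% in old and 59.3 and 64.9% in control cells. The intervals overlapped in all 3 libraries, so at this depth the receptors were neither seen together nor apart in the same cells more than by these shares. Fcgr3 was more often seen in cells with Fpr1, at 68.7 and 54.6% in young, 78.7 and 66.8% in old and 59.3 and 50.2% in control cells, with the intervals apart in old cells alone. Cells with more Retnlg and Mmp8 held more of both genes, as given above.

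The members did not share a single pattern over the 15 sums of band and library. Pearson's r of log2(CPM + 1), a description over sums that share libraries and cells, was 0.93 between Fcer1g and Fpr2, 0.90 between Fpr1 and Tlr2 and 0.85 between Fpr1 and Fpr2. It was 0.21 between Fcgr3 and its chain Fcer1g, and -0.12 between Il1b and Myd88. The genes most like Fpr1 were Timp2 (r = 0.99), Prr13 and Cd24a, and those most like Fpr2 were Rala (0.98), Rasgrp4 and Kdm7a. Tlr2 was most like Tprgl (0.95), Atp6v1g1 and Prok2, and Cd14 most like Sdcbp (0.94), Jund and Upp1. Myd88 was most like Il4ra (0.97), Ifitm2 and Rap1b, and Il1r2 most like Ppp1r2 (0.95), Lrg1 and G6pdx. Fcer1g was most like Apobr (0.99), Gpsm3 and Mgst1, and Fcgr3 most like Map1lc3b (0.93), Pgd and Emb. Il1b was most like Trim30a (0.96), H2-T23 and Trim12a, and Tlr4, whose whole range was 0.60 log2 units, most like Cib1 (0.84), Eif4ebp1 and Fam103a1.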

How the data were processed

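Single-cell RNA was measured in 3 libraries of CD133+ marrow cells (Chromium Single Cell 3′ v2). The authors deposited raw UMI counts for each gene and cell, made with STAR and Cell Ranger 2.1.0 on mm10 per the labels, with no normalization. Whether intronic reads or strand entered the counting is not given in the sources used here. Gene positions were taken from GENCODE M21, which held 27645 of the 27998 gene identifiers.

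Cells with at least 200 genes, at most 20% mitochondrial UMIs and a total between the 5th and 95th percentile of UMIs were kept (young and old pooled, control alone), which left 7378, 9681 and 9780 cells. A cell was set aside with at least 3 markers of 1 other blood cell type and at least 5 of their UMIs per 10000. Counts were summed by library and band and tested with edgeR 4.0.16 (R 4.3.3; quasi-likelihood, TMM, filterByExpr, library as block, Benjamini-Hochberg adjustment over all genes tested). Mpo, Retnlg and Mmp8, which set the bands, were left out of the test. Ratios between libraries carried exact conditional binomial intervals (scipy 1.17.1), since each condition was 1 library. On simulated counts the fit recovered 197 of 200 changed genes for band 5 against band 1 and called 1 of 10157 unchanged genes. The simulation gave every library the same means, all genes the same spread, and balanced changes in band 5 alone. It thus did not test the fit under the shift of the bulk of genes or the scatter between libraries in the real sums. Alternatives covered trimming, scaling (TMM, DESeq2 1.42.0 size factors, none), band limits, minimum level, limit of fold, the block, and each library left out.

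The members, the pathway list and the bands were chosen with earlier results of these data known. Named were the 10 members, Anxa1, of the pathway list the 5 genes with the largest change past the limits in each direction, and for each member the 3 genes with the highest Pearson r among those with at least 50 CPM in a sum. A gene that this rule names is not reported here.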

Additional observations from a re-analysis of the deposited data

Results flagged for a closer look

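Low-UMI cells of the neutrophil lineage (693 young, 134 old and 512 control), which the trimming removed and no comparison above used, held members above the level of the same cells in the control library. Fpr1 stood at 188 CPM in young and 192 in old against 65.8 in control cells, and Tlr2 at 42.3 and 56.1 against 19.3 CPM. Fcgr3 stood at 338 and 384 against 208 CPM, and Fcer1g at 2814 and 2406 against 2173 CPM. Il1r2 stood at 291 CPM in old against 154 in control cells. Il1b stood at 21.8 CPM in young and 114 in old against 4.51 in control cells, so the order of young and old for Il1b was the opposite of that in band 5. The old value rested on 53 UMIs in 16 cells, of which 24 were in 3 cells, and was 93.6 CPM without the cell that held most. Retnlg plus Mmp8 summed to 20733 CPM in the young, 23082 in the old and 10102 in the control cells of this kind, and their part in these differences was not tested.

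Libraries also moved in opposite directions from band 2 to band 3 on the CPM scale, and these differences were not tested. Fcgr3 gave log2 ratios of -0.24 in young, 0.0027 in old and 0.22 in control cells. Il1r2 gave -0.26 in young, -0.28 in old and 0.32 in control cells.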

How the results depend on the processing

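No paired analysis was possible because each condition was 1 library, so its replicate number pairs no samples. Depth limits Cd14, Tlr2, Tlr4 and Il1b, which lay under 10 CPM in most sums. Over the alternatives for single members, 602 of the band values stayed on their side of the threshold, 18 newly passed it and 30 lost the call. Of values called in either fit, 0 turned. Changes of sign in values not called were not counted. Without a scaling factor, for example, Tlr4 from band 2 to band 3 went from a log2 fold change of 0.24 to -0.10. Of the library ratios, 135 moved by less than their interval, 105 moved further and 0 turned among those called.

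For band 5 against band 1 the count of members called stayed at 9 to 9 without each library in turn. For band 2 against band 1 it was 5 (4 higher, 1 lower) with no limit of fold and 1 with higher band limits (3 to 3 without each library). For band 3 against band 2 it was 5 with no limit of fold and 1 with no scaling factor, with lower band limits or with other blood cells kept (2 to 3 without each library). For band 4 against band 3 it was 2 with no limit of fold, 0 without the library block or with lower limits and 5 with higher limits (1 to 2 without each library, 2 without young). For band 5 against band 4 it was 4 without the library block or with higher limits (6 to 7 without each library). The cause was not tested.

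Without a minimum level, 7 members passed the limit for old against young (6 higher and Il1b lower). Of all genes 9.99% were then higher and 27.2% lower. For old against control it was 7, all higher, against 13.8% of all genes higher and 19.8% lower. For control against young it was 4 (2 higher and 2 lower), against 6.55% of all genes higher and 16.1% lower. At a limit of 2 times the count was 1 for old against control (Fpr1, higher), against 1.91% of all genes higher and 1.43% lower. It was 0 for control against young, against 0.432% of all genes higher and 1.76% lower. Over pairs of member and band it was 9 for old against young and 5 for control against young (6 at a minimum of 50 CPM). No shares of all genes were computed for these pairs. Control against young gave 2 with other blood cells kept, with TMM, with equal weight of bands and without the 20 most abundant genes (Fpr1 lower in the last). In those settings 1.59 to 3.72% of all genes were higher and 2.76 to 6.62% lower. It gave 0 as UMIs per cell or without mixed cells. With no UMI trimming, or with percentiles of each library, its 1 member was Fpr1, lower, instead of Fpr2. Of all genes 3.91 and 3.92% were lower in these settings. With equal weight of bands the old to control log2 ratio was 0.83 for Fpr1 and -0.23 for Fpr2. The no-scaling fit and the split of band 5 were chosen after seeing the data.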
